A study of Mus musculus with 6 samples.

Results

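The genes described here are 39 genes that mark successive steps from neuroblast to neuron. They were taken by symbol from a table of 49671 mouse genes, and all 39 were found. By role they are proneural and neurogenic factors (9 genes), transcription factors of neuroblasts and interneurons (5), proteins of the neuronal cytoskeleton, growth and adhesion (10), transmitter and calcium-binding genes (8) and synaptic proteins (7). RNA was sequenced from neurospheres, the floating aggregates that neural stem cells (NSCs) of the adult subventricular zone (SVZ) form with EGF and FGF2, in 3 libraries of the genotype Tet3-Gfap control and 3 of Tet3-Gfap cre. Mice of both genotypes had loxP sites around exon 5 of *Tet3* on both alleles (Tet3 loxp/loxp) and a C57BL6 background. The cre mice also had a Cre recombinase transgene under a *Gfap* promoter (Gfap-cre +/0), which the controls lacked (Gfap-cre 0/0), so recombination is limited to cells that have used that promoter. Mice were 2 to 4 months old, and an independent culture was started from 2 animals. Whether the 3 libraries of a genotype came from separate cultures is not given in the sources used here, so p-values measure only the spread between these samples.

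In the SVZ, stem cells give rise to transit-amplifying progenitors and these to neuroblasts, which migrate to the olfactory bulb and become interneurons. Along this path, basic helix-loop-helix factors such as the neurogenins and NeuroD proteins switch on neuronal genes, doublecortin and βIII-tubulin appear in the migrating neuroblast, and transmitter enzymes and synaptic vesicle proteins follow as the cell matures. In bulk RNA, fewer cells of a type and less RNA per cell cannot be told apart.

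Each library held 29660398 to 35405326 counts. The targeted gene *Tet3* measured 114 CPM in control 1, 136 in control 2 and 60.3 in control 3, against 61.3 in cre 1, 60.5 in cre 2 and 116 in cre 3. CPM are counts per 1000000 counts of the TMM-scaled library. *Tet3* thus went against the label in the library labelled control 3, which was as low as cre 1 and 2, and in the library labelled cre 3, which was as high as control 1 and 2. The counts cover all exons together, so loss of exon 5 itself cannot be read from them. Comparisons are therefore given over all 6 libraries by label and over 4 of them. The 4 leave out control 3 and cre 3 and hold 2 libraries per group. Whether the labels of control 3 and cre 3 were exchanged was not tested, and if they were, a fold change by label would mix the genotypes. Libraries are named by their labels throughout. The stem cell genes *Nes* and *Sox2* were present, at a mean of 1564 and 186 CPM.

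*Nptx2* alone of the 39 genes was higher in cre past the threshold, over the 4 libraries. The threshold was an adjusted p under 0.05 in edgeR's quasi-likelihood test. Over 6 libraries, 23 of the 39 genes had enough counts to be tested and 0 passed, as did 0% of all 16916 genes tested. DESeq2, limma-voom and edgeR's exact test also called 0 of the 23, and over all genes they called 70, 0 and 68. At an unadjusted p under 0.05, *Gad1* and *Nptx2* were higher (background 2.66%) and *Nptxr* lower (background 2.34%), which makes 3 of 23 against 5% of all genes. *Nptxr* was also the 1 gene of 23 whose groups did not overlap. Among all genes 9.47% did not overlap, 4.81% with cre higher and 4.66% with cre lower.

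Over 4 libraries, 1 of 24 tested genes passed, against 0.459% of all 17003 genes (0.212% higher and 0.247% lower). DESeq2 called 2 of the 24 (*Nptx2* and *Sp8*), limma-voom 1 and the exact test 6 (also *Neurod1*, *Eomes*, *Nefm* and *Syt1*). Over all 17003 genes these tools called 478, 74 and 638. At an unadjusted p under 0.05, *Neurod1*, *Nefl*, *Nefm* and *Nptx2* were higher (background 6.12%) and *Eomes*, *Sp8* and *Syt1* lower (background 5.12%), 7 of 24 against 11.2% of all genes. *Sp8* entered this test only through its high control libraries, and without it the count was 6 of 23. Groups did not overlap for 5 genes with cre higher (background 20.4%) and 4 with cre lower (background 20.2%). That makes 9 of 24 against 40.6% of all genes, a share near the background. The 4 include *Sp8*, whose place there follows from its entry through high control libraries. The calls of DESeq2 and the exact test above also include it. The median log2 fold change, cre minus control in all that follows, was 0.06 by label and 0.10 over 4 libraries, beside medians of -0.00497 and -0.000536 over all genes tested. These counts and medians take in only genes that passed the filter on low counts.

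Levels of different genes are compared as CPM per kilobase of exon, and the order did not follow the order of maturation. The growth cone gene *Gap43* had the highest mean at 392 CPM per kilobase, followed by *Map2*, whose product stabilizes dendritic microtubules, at 68.0. The SoxC factor genes *Sox4* and *Sox11*, at 28.6 and 20.5 CPM per kilobase, and the adhesion gene *Ncam1*, at 22.2, came next. The neuroblast genes *Tubb3*, for βIII-tubulin, and *Dcx*, for doublecortin, lay far below at 2.53 and 0.142 CPM per kilobase. *Map2* alone made up 42.0% of the summed CPM of the 39 genes, and *Gap43* made up 22.4%.

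**Figure D1:**
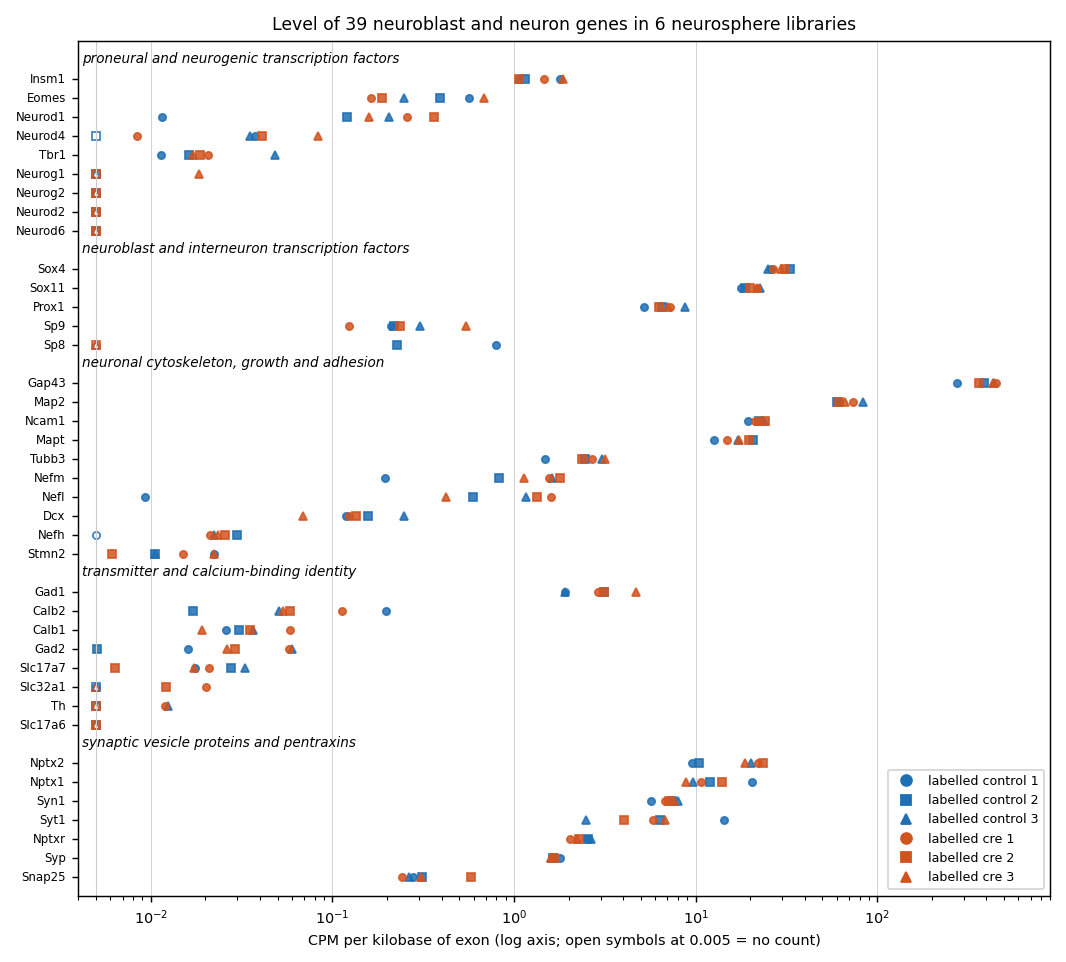
Level of each of the 39 genes in each library, as CPM per kilobase of exon on a log axis, grouped by role and ordered by mean level within a role. Circles, squares and triangles are replicates 1, 2 and 3, blue for libraries labelled control and orange for cre, and open symbols on the line at the left edge have no count. *Gap43*, with a mean of 392, and *Map2*, with 68.0, lie at the top, and 4 genes have no count in any library.

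Several proneural and transmitter genes were silent or nearly so. *Neurog2*, *Neurod2* and *Neurod6*, which encode helix-loop-helix factors, and *Slc17a6*, which encodes a vesicular glutamate transporter, had no count in any of the 6 libraries. A count of 0 allows up to 0.0848 to 0.102 CPM depending on the library (3 counts, counting error only). The proneural gene *Neurog1*, the dopamine synthesis gene *Th* and the vesicular GABA transporter gene *Slc32a1* never exceeded 3 counts. Another 8 genes had 0 to 12 counts in a library, namely *Neurod4*, the cortical neuron factor gene *Tbr1*, the growth cone gene *Stmn2*, the neurofilament gene *Nefh*, the calcium-binding genes *Calb1* and *Calb2*, the GABA synthesis gene *Gad2* and the vesicular glutamate transporter gene *Slc17a7*. A difference between genotypes in these genes was not detectable at this depth.

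Of the 9 proneural and neurogenic factors, 3 were tested and 0 passed in either comparison. *Insm1*, which encodes a zinc finger factor of neurogenic progenitors, was the most abundant of them. Its control libraries measured 5.53, 3.56 and 3.31 CPM and its cre libraries 4.52, 3.31 and 5.81 CPM, in the order of the replicate numbers, which is kept below. The groups overlapped. The difference by label was 0.14 ± 0.28 (log2 fold change and SE, edgeR adjusted p = 1.00), with a 95% interval from -0.50 to 0.78.

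*Eomes*, which encodes the T-box factor TBR2 of intermediate progenitors, measured 2.36, 1.63 and 1.03 CPM in control and 0.678, 0.785 and 2.83 CPM in cre. The highest library was cre 3. By label the log2 fold change came to -0.23 ± 0.58 (SE, edgeR adjusted p = 1.00), and it turned positive without control 1 (0.10), cre 1 (0.12) or cre 2 (0.06). Over 4 libraries, where the groups did not overlap, it was -1.45 ± 0.35 (SE, edgeR adjusted p = 0.163), and the exact test gave an adjusted p of 0.0189.

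*Neurod1*, a differentiation factor gene that acts after the neurogenins, had 1, 11 and 19 counts in control and 25, 29 and 14 counts in cre. In CPM these were 0.0314, 0.327 and 0.561 against 0.706, 0.990 and 0.435. Control 1 stood at a single count. *Cerkl* shares 7.4% of the exon bases of *Neurod1* on the same strand, and an antisense gene covers 5.6%. The log2 fold change was 1.18 ± 0.69 by label (SE, edgeR adjusted p = 1.00) and 2.19 ± 0.75 over 4 libraries (SE, edgeR adjusted p = 0.330), where it was 1.36 without control 1 and 4.58 without control 2. There the adjusted p was 0.0306 in edgeR's exact test and 0.0114 in the quasi-likelihood test with no filter.

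Among the factors of neuroblasts and interneurons, *Sox4* and *Sox11*, which act in the onset of neuronal gene expression, varied little. *Sox11* measured 148, 155 and 189 CPM in control and 182, 165 and 181 CPM in cre, a log2 fold change by label of 0.10 ± 0.10 (SE, edgeR adjusted p = 1.00) with a 95% interval from -0.13 to 0.34. For *Sox4* the values were 125, 159 and 120 CPM against 128, 150 and 142 CPM, and the interval ran from -0.22 to 0.34. An antisense gene covers 54.6% of the exon bases of *Sox4*, and the strand setting of the counting is not given in the sources used here, so that its reads may be shared. *Prox1*, a homeobox gene of maturing granule neurons, measured 43.8, 55.0 and 73.5 CPM in control and 60.9, 53.0 and 58.9 CPM in cre, with both extremes in control.

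*Sp8* and *Sp9* encode zinc finger factors of olfactory bulb interneurons. *Sp8* had 115 counts in control 1, 35 in control 2 and 0 in control 3 and in every cre library. That is 3.61 CPM in control 1 and 1.04 CPM in control 2. Against a floor of 3 counts in each of cre 1 and cre 2, the mean of control 1 and 2 was at least 24.9-fold higher. *Sp8* passed the filter on low counts over 4 libraries only through control 1 and 2, where it was high, so its p there is not given as support, and by label it was not tested. *Sp9* measured 1.07, 1.10 and 1.54 CPM in control and 0.622, 1.19 and 2.73 CPM in cre, and both extremes lay in cre.

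*Sp8* and *Eomes* are the factor genes of this set that were lower in both of cre 1 and 2 than in both of control 1 and 2. So were 20.2% of all genes tested over 4 libraries, and *Eomes* did not pass the threshold there. The start of *Sp8* and that of *Eomes* are printed with CG dinucleotides, whose methylated cytosines are the usual substrate of TET enzymes, in capitals. A link between CG dinucleotides and these differences was not tested. Both windows run 5′ to 3′ on the plus strand of GRCm38.p6, from 250 bases before to 50 after a RefSeq start, at chr12:118846079-118846378 for *Sp8* and chr9:118477939-118478238 for *Eomes*.
Sp8: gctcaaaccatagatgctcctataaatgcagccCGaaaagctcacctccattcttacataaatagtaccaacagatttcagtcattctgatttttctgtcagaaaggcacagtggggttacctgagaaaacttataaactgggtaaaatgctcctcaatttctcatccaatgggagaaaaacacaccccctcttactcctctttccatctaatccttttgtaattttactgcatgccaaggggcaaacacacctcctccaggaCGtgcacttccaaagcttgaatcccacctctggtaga
Eomes: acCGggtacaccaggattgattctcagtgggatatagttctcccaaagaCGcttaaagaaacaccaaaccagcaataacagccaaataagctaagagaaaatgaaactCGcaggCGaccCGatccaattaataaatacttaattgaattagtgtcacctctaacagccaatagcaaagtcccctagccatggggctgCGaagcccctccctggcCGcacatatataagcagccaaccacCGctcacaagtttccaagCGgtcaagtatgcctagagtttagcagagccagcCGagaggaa
The *Sp8* window, at the first of its 3 RefSeq starts, holds 2 CG dinucleotides, a number that 85.9% of all 32851 RefSeq windows of this length reach, and the *Eomes* window holds 10, which 43.5% reach. The windows at the other starts of *Sp8* hold 32, which 9.52% reach, and 10, which 43.5% reach. Methylation was not measured in these libraries. Of the 39 genes, 25 had a window, and their 32 windows had a median of 13.5 CG dinucleotides against 7.0 over all windows. An E-box, CANNTG on both strands, was present in 59.4% of the 32 windows and in 72.3% of all. CAGATG on either strand and CAGCTG, which are forms of CANNTG, were each present in 12.5% of the 32 windows, against 17.2% and 16.3% of all.

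Of the 10 genes of cytoskeleton, growth and adhesion, 8 were tested and 0 passed in either comparison. *Map2* measured 1013, 992 and 1381 CPM in control and 1215, 1010 and 1098 CPM in cre, with cre inside the range of control. Its log2 fold change by label was -0.03 ± 0.14 (SE, edgeR adjusted p = 1.00), with a 95% interval from -0.35 to 0.30. *Gap43* measured 417, 591 and 672 CPM in control and 686, 555 and 662 CPM in cre. *Mapt*, for the axonal microtubule protein tau, measured 95.7, 157 and 129 CPM against 112, 149 and 131 CPM, and *Ncam1* 168, 195 and 206 CPM against 185, 209 and 192 CPM. The groups overlapped in all of these genes.

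The neuroblast markers did not differ beyond the spread either. *Tubb3* measured 2.76, 4.57 and 5.70 CPM in control and 5.03, 4.40 and 5.94 CPM in cre, and the 95% interval by label ran from -0.39 to 0.86. *Dcx* measured 1.51, 1.99 and 3.13 CPM in control and 1.55, 1.71 and 0.870 CPM in cre. For *Dcx* the highest library was control 3 and the lowest cre 3, and the log2 fold change was -0.68 ± 0.36 by label (SE, edgeR adjusted p = 1.00) and -0.11 over 4 libraries.

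The neurofilament genes *Nefl* and *Nefm*, for subunits of the axonal intermediate filament, were uneven between libraries. *Nefl* measured 0.0314, 2.02 and 3.96 CPM in control and 5.40, 4.54 and 1.43 CPM in cre, with 1 count in control 1. *Nefm* measured 1.13, 4.81 and 9.36 CPM in control and 9.04, 10.4 and 6.56 CPM in cre. Control 1 was the lowest library for both. Over 4 libraries the log2 fold change was 2.26 ± 0.93 for *Nefl* (SE, edgeR adjusted p = 0.431) and 1.70 ± 0.53 for *Nefm* (SE, edgeR adjusted p = 0.290, and 0.0148 in edgeR's exact test). It fell to 1.30 and 1.01 without control 1 and rose to 7.13 and 3.09 without control 2. Each of these fits has a lone control library, so its control group has no spread of its own. The genes overlap on opposite strands, over 32.8% of the exon bases of *Nefl* and 19.2% of those of *Nefm*.

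**Figure D2:**
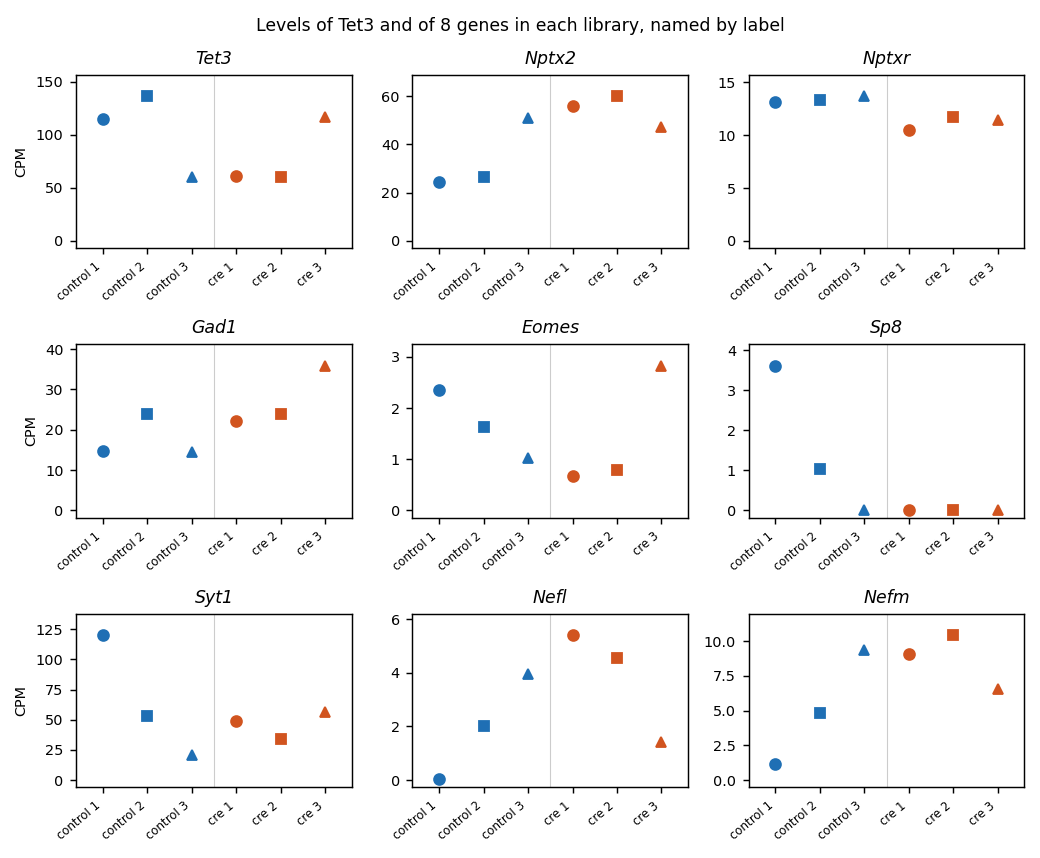
CPM of *Tet3* and of 8 of the 39 genes in each library, 1 point per library named by its label, with an axis per gene. *Nptx2* is low in control 1 and 2, at 24.4 and 26.6 CPM, *Sp8* has counts in these libraries alone, and *Nptxr* is the gene whose groups by label do not overlap.

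Of the 8 transmitter and calcium-binding genes, *Gad1* was the 1 with enough counts to be tested. It encodes GAD67, an enzyme that makes GABA, the transmitter of most olfactory bulb interneurons. *Gad1* measured 14.7, 24.0 and 14.6 CPM in control (17.8 ± 5.39, SD, n = 3) and 22.2, 24.0 and 35.9 CPM in cre (27.4 ± 7.42, SD, n = 3). Cre 3 was the highest library, and control 2 lay among the cre libraries. The log2 fold change was 0.62 ± 0.25 by label (SE, edgeR adjusted p = 0.974) and 0.25 ± 0.21 over 4 libraries (SE, edgeR adjusted p = 0.769). Its partners were nearly silent, with 1 to 12 counts for *Gad2* and 0 to 2 for *Slc32a1*.

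All 7 synaptic genes were tested, and *Nptx2* was the 1 that passed, over 4 libraries. It encodes neuronal pentraxin 2, a secreted protein that gathers AMPA receptors at synapses. *Nptx2* measured 24.4, 26.6 and 51.0 CPM in control (34.0 ± 14.8, SD, n = 3) and 55.9, 60.0 and 47.4 CPM in cre (54.4 ± 6.44, SD, n = 3). Control 1 and 2 were low and the other 4 libraries high, so that the groups by label overlapped. The log2 fold change by label was 0.68 ± 0.27 (SE, edgeR adjusted p = 0.974), and without control 3 it was 1.09 (edgeR adjusted p = 0.0330). Over 4 libraries *Nptx2* was higher in cre by 1.18 ± 0.09 on the log2 scale (SE, edgeR adjusted p = 0.00898, range over the alternatives 5.91e-25 to 0.0175). With any 1 of the 4 libraries left out, which leaves a lone library in a group, the log2 fold change was 1.12 to 1.24.

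The related genes gave other values. *Nptx1*, for the pentraxin secreted alongside it, measured 107, 62.5 and 50.8 CPM in control and 56.3, 73.3 and 46.3 CPM in cre. Its log2 fold change was -0.32 ± 0.28 by label (SE, edgeR adjusted p = 1.00) and -0.39 ± 0.24 over 4 libraries (SE, edgeR adjusted p = 0.661), and both turned to 0.048 without control 1. *Nptxr*, for the membrane-bound receptor of the family, measured 13.1, 13.3 and 13.7 CPM in control (13.4 ± 0.278, SD, n = 3) and 10.5, 11.7 and 11.5 CPM in cre (11.2 ± 0.662, SD, n = 3), with every cre library below every control library. The size was small, -0.25 ± 0.09 on the log2 scale (SE, edgeR adjusted p = 0.972), and *Npcd* shares 17.2% of the exon bases of *Nptxr* on the same strand. Differences between the fold changes of these genes were not tested.

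*Syt1*, for the calcium sensor of vesicle release synaptotagmin 1, measured 120, 53.1 and 20.8 CPM in control (64.6 ± 50.6, SD, n = 3) and 48.6, 33.8 and 56.3 CPM in cre (46.2 ± 11.4, SD, n = 3), with both extremes in control. The log2 fold change by label, -0.48 ± 0.54 (SE, edgeR adjusted p = 1.00), turned to 0.33 without control 1. Over 4 libraries it was -1.07 ± 0.36 (SE, edgeR adjusted p = 0.317, and 0.0103 in edgeR's exact test). It was -0.36 without control 1 and -1.55 without control 2, in fits with a lone control library. *Syp*, for the vesicle protein synaptophysin, was steady at 9.39, 8.56 and 8.30 CPM in control and 8.42, 8.67 and 8.36 CPM in cre. An antisense gene covers 16.8% of the exon bases of *Syp*. *Syn1*, for synapsin 1, measured 18.7, 24.6 and 26.5 CPM against 22.5, 23.6 and 25.1 CPM. The SNARE gene *Snap25* measured 1.88, 2.11 and 1.80 CPM against 1.64, 3.96 and 2.08 CPM, with both extremes in cre.

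**Figure D3:**
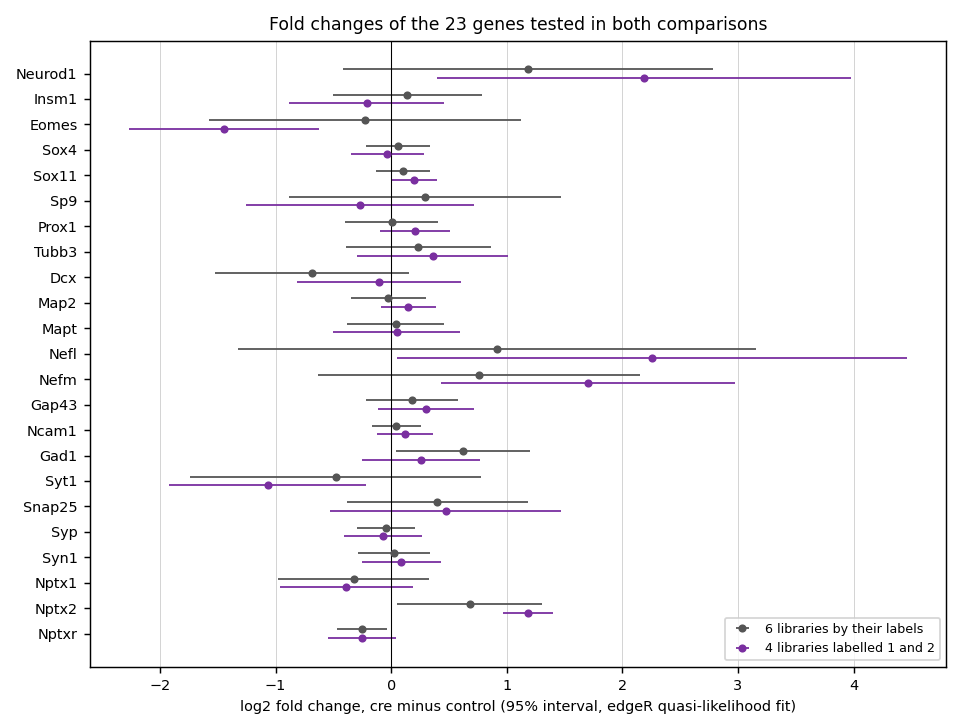
Log2 fold changes (cre minus control) of the 23 genes tested in both comparisons, with 95% intervals from edgeR's quasi-likelihood fit, over 6 libraries by label (grey) and over the 4 libraries labelled 1 and 2 (purple). The interval of *Nptx2* over 4 libraries runs from 0.97 to 1.40, and those of *Nefl*, *Nefm* and *Neurod1* are the widest on the side above 0.

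Summed over each role, the groups by label overlapped. The proneural and neurogenic factors summed to 5.29 to 8.10 CPM in control and 5.32 to 9.48 CPM in cre. The cytoskeletal group ran from 1699 to 2410 CPM and from 1945 to 2220 CPM, and the synaptic group from 173 to 294 CPM and from 197 to 215 CPM. Control 1 was the lowest library for 11 of the 23 tested genes, against 21% of all genes tested. The highest library was a median of 2.15 times the lowest over the 23 genes, and 1.34 times over all genes tested.

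**Figure D4:**
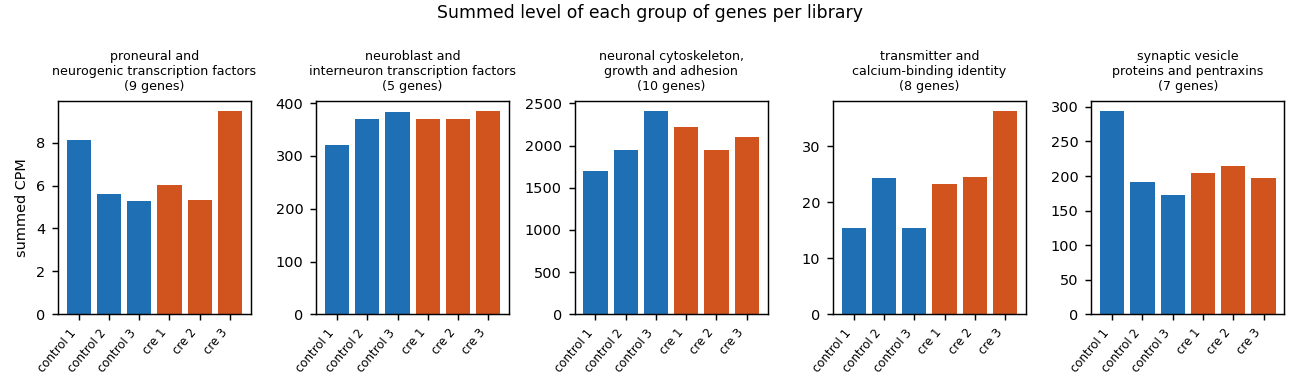
Summed CPM of the genes of each role in each library, as bars from 0, blue for libraries labelled control and orange for cre, with an axis per role. The synaptic sum is highest in control 1, at 294 CPM, and the transmitter sum is highest in cre 3, at 36.3 CPM.

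Further genes of the same path were counted in 4 lists of other neurogenic factors, neuroblast and axon proteins, transmitter genes and synaptic release genes. By label 0 of their 79 tested genes passed in edgeR's quasi-likelihood test, DESeq2 and limma-voom and 1 in the exact test, and 11 had an unadjusted p under 0.05, 8 higher and 3 lower, against 5% of all genes. Over 4 libraries 2 of 80 passed, both lower, against 0.459% of all genes. There limma-voom also called 2 lower, DESeq2 5 higher and 4 lower, and the exact test 8 higher and 3 lower. Over all 17003 genes limma-voom called 39 higher and 35 lower, DESeq2 250 and 228, and the exact test 347 and 291. The 2 that passed in edgeR's quasi-likelihood test were *Ebf1* and *Elavl4*. *Ebf1*, for a helix-loop-helix factor of differentiating neurons, stood at -2.13 ± 0.20 on the log2 scale (SE, edgeR adjusted p = 0.0159). *Elavl4*, for the neuronal RNA-binding protein HuD, stood at -2.40 ± 0.29 (SE, edgeR adjusted p = 0.0292). *Ebf1* measured 38.3, 25.8 and 8.12 CPM in control and 7.43, 7.20 and 10.1 CPM in cre, and *Elavl4* 28.3, 18.8 and 4.37 CPM against 3.36, 5.63 and 14.7 CPM. In both genes control 3 was among the low libraries. The 31 synaptic release genes summed to 1078 to 1198 CPM in control and 1219 to 1473 CPM in cre. *Syt11*, the most abundant of them, alone measured 550, 598 and 638 CPM in control and 741, 832 and 648 CPM in cre. At an unadjusted p under 0.05 by label 4 of 27 tested genes were higher and 0 lower, against 2.66% and 2.34% of all genes. The log2 fold change by label was above 0 for 17 of the 27 and below 0 for 10. Over all genes tested by label, 8182 were above 0 and 8734 below.

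Markers of other cell types were measured beside these genes. The astrocyte list summed to 2313 to 2983 CPM in control and 2027 to 2553 CPM in cre, with *Gjb6* at 0. Over 4 libraries 1 of its 11 tested genes, *Gfap*, was higher in cre past the threshold. *Gfap* measured 0.503, 0.327 and 6.62 CPM in control and 3.84, 3.52 and 0.280 CPM in cre. Its log2 fold change by label was 0.03. Of the 11 genes, 7 had a log2 fold change above 0 over 4 libraries and 4 below 0. The split over all genes tested there was 8472 above 0 and 8531 below. The oligodendrocyte list summed to 2715 to 3090 CPM and 3088 to 3421 CPM. Most of this was *Olig1* and *Olig2*, at a mean of 1928 and 927 CPM. *Sox10*, *Mbp*, *Mog* and *Mag* had means of 0.311, 0.831, 0.0472 and 0.0241 CPM. The stem and progenitor list summed to 7719 to 8828 CPM and 7201 to 7917 CPM. The ependymal list summed to 19.6 to 24.1 CPM and 29.9 to 31.6 CPM, with *Tmem212* at 0, and over 4 libraries 1 of 4 tested genes, *Hydin*, was higher in cre. The microglial, vascular and mural list was near 0, at 1.30 to 6.25 CPM for 10 genes. By label 0 of the 37 tested genes of these lists passed in edgeR's quasi-likelihood test or limma-voom, 1 in DESeq2 and 2 in the exact test, with 6 at an unadjusted p under 0.05 against 5% of all genes. Over 4 libraries *Gfap* and *Hydin* were 2 of 38 tested, against 0.459% of all genes. Their part in the results above was not tested.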

How the data were processed

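Libraries were made by the authors with a TruSeq stranded mRNA kit, sequenced on a NextSeq 500, aligned with Subread to GRCm38.p5 and counted per gene with Rsubread and the Ensembl GRCm38.87 annotation. The deposited values are raw read counts per gene, 1 column per library. How strand, multi-mapped reads and overlapping genes were handled, and the tool versions, are not given in the sources used here. From these counts, differences were fitted with edgeR 4.0.16 in R 4.3.3 (TMM, filterByExpr, quasi-likelihood test, Benjamini-Hochberg adjustment over all genes tested, threshold 0.05), by label over 6 libraries and over the 4 libraries labelled 1 and 2. SEs come from the F statistic. Alternatives were DESeq2 1.42.0, limma-voom (limma 3.58.1), edgeR's exact test, other normalizations and filters, a replicate block and leaving out libraries. Exon lengths and overlaps are from GENCODE M21 on GRCm38, promoter windows from RefSeq. Precision is set by counting error at 29660398 counts per library or more and by the spread between libraries. That spread comes from 3 libraries per group by label and from 2 per group over 4 libraries. No libraries agreed within sampling noise. The 39 genes and all lists were chosen with earlier results of these data known. Every tested gene is given with each library's values. Fold change, SE and adjusted p are given for genes past the threshold or at an unadjusted p under 0.05 in either comparison. They are also given for the gene of each role with the highest mean CPM, not divided by exon length. *Sp8*, at 0 in cre, is given as a bound instead, and *Dcx* was added after its values were seen. Of the other neuronal lists, genes past the threshold are named.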

Additional observations from a re-analysis of the deposited data

How the results depend on the processing

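By label, genes of the 39 higher in cre numbered 0 in edgeR's quasi-likelihood test, 0 to 1 on leaving out 1 library (*Nptx2* without control 3) and 1 without control 3 and cre 3, and genes lower numbered 0 throughout. All genes called higher and lower by label, 0 each, became 39 and 31 with DESeq2, 40 and 28 with the exact test, 1 and 2 with no filter, 36 and 42 without control 3 and cre 3, and 0 to 4 and 0 to 14 on leaving out 1 library. Over 4 libraries, genes of the 39 higher (1) became 3 with the exact test and 5 with no filter, and those lower (0) became 1 with DESeq2, 3 with the exact test and 4 with no filter. Leaving out 1 of the 4 libraries, an alternative chosen after seeing the data in which a lone library is assumed to vary like the other group, gave 1 to 3 higher and 0 to 2 lower. All genes over 4 libraries, 36 higher and 42 lower, became 250 and 228 with DESeq2, 347 and 291 with the exact test, 780 and 545 with no filter, and 27 to 207 and 31 to 111 on leaving out 1 library. With a replicate block over 4 libraries, 2 of the 39 were called lower (*Sp8*, tested only through its high control libraries, and *Syt1*, edgeR adjusted p = 0.0448) and all genes became 94 higher and 75 lower. Deviations of same-numbered libraries from their group means were not correlated (r = -0.089, 0.008 and -0.017). Those means include control 3 and cre 3, so the check cannot tell whether the numbers mark a pairing. By label the block called 0. On leaving out 1 library by label, the log2 fold change changed sign for *Insm1* (-0.077 without cre 3, range -0.077 to 0.41), *Eomes* (0.10, 0.12 and 0.06 without control 1, cre 1 and cre 2, range -1.19 to 0.12), *Map2* (0.14 and 0.04 without control 3 and cre 2, range -0.11 to 0.14), *Syt1* (0.33 without control 1, range -0.90 to 0.33) and *Nptx1* (0.048 without control 1, range -0.53 to 0.048). Without control 3 and cre 3 it changed sign for *Insm1* (-0.21) and *Map2* (0.15). Over 4 libraries it changed sign without control 1 for *Insm1* (0.14, range -0.50 to 0.14), *Gad1* (-0.056, range -0.056 to 0.65) and *Nptx1* (0.048, range -0.73 to 0.048). The cause of these changes was not tested. Depth limits the 15 genes with 12 counts or fewer in every library.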
